A study of Rattus norvegicus with 7 samples.

Results

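Receptor tyrosine kinases are described here in RNA of rat colon crypts, from the proximal and the distal end of the colon. The genes were taken from a list of 47 receptor symbols, matched to the gene names of the deposited expression table and sorted by receptor family. Of these, 45 were found among 16468 genes, and Kdr and Ephb4 were not analysed here. The rats were of the Sprague Dawley strain, an outbred laboratory stock, and were 14 weeks old, with no treatment or allele named in the labels. Each end of the colon gave 1 RNA library, pooled from 7 rats, so there was no spread between replicates and every difference below compares 2 libraries. The series title places proto-oncogene expression along the colon at its centre, and many of the receptors described here are proto-oncogenes. The 5 chromatin immunoprecipitation libraries of the series were not analysed here.

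Receptor tyrosine kinases span the cell membrane once. A ligand outside brings receptor chains together, the kinase parts inside phosphorylate each other on tyrosine, and adaptor proteins bound there pass the signal to the RAS and ERK cascade and to PI3K and AKT. In the gut epithelium, ErbB receptors, MET, the insulin receptors and Eph receptors are known for control of crypt proliferation, repair and cell position, whereas VEGF, TIE, PDGF and CSF1 receptors are best known from vessels, stroma and macrophages.

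Levels are in FPKM, fragment counts divided by transcript length and library depth, which allows levels of different genes to be set side by side. Where a pair of values follows a gene, the proximal value comes first. A gene listed at 0 is reported as listed, not as absent. Genes with at least 1 FPKM in either library are called measured: 24 of the 45 receptors and 9847 of all genes. Differences between the ends are given as a log2 ratio of distal over proximal, after adding 1 FPKM to both values, which understates differences of low genes. Plain folds are ratios of the FPKM values themselves and are left out where the lower value is under 0.399 FPKM, about 3 reads for a transcript of 1 kb. Log2 fold changes of the authors' deposited table are printed with the standard error (SE) that its test statistic implies, an error from the model behind that table and not from variation between rats. At roughly 30.1 reads per FPKM proximally and 36.6 distally for a transcript of 4 kb, levels well under 1 FPKM rest on few reads.

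The preparations carried the RNA of epithelium. The epithelial adhesion gene Epcam stood at 1490 FPKM proximally and 1991 FPKM distally, and each of the 9 epithelial markers in the table was less than 2-fold apart. All 9 were higher distally, with a median log2 ratio of 0.50, beside 0.09 over all measured genes. Markers of other cells were far lower in sum, as the plot of marker lists shows. The 9 fibroblast and muscle markers summed to 19.2 and 16.4 FPKM, with the matrix genes Dcn and Lum listed at 0 in both. The 4 B cell markers summed to 24.6 and 1.22 FPKM, and the 8 mast cell markers to 349 and 156 FPKM. In bulk RNA, fewer cells of a type and less RNA per cell cannot be told apart.

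**Figure D1:**
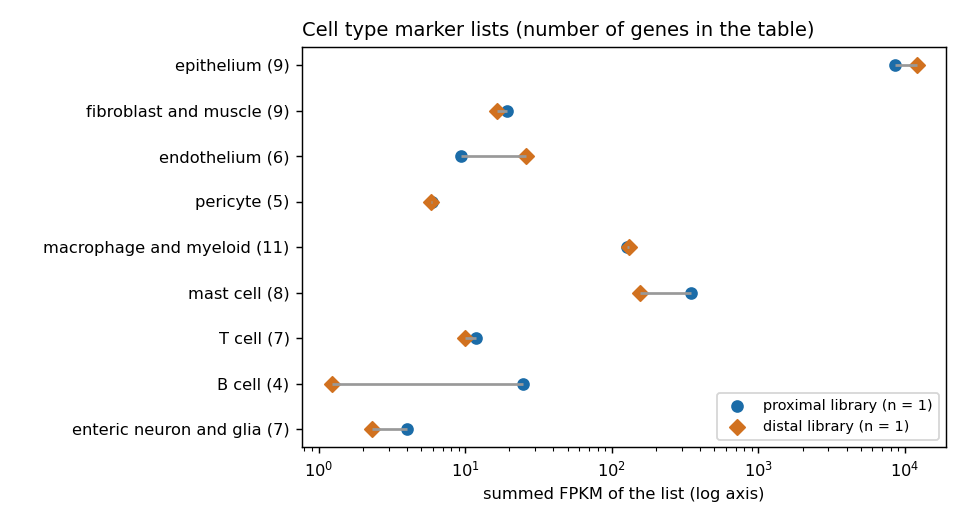
Summed FPKM of each list of cell type markers (log axis) in the proximal (circles) and distal (diamonds) library, with the number of list genes in the table in parentheses. Epithelial markers, at 8559 and 11987 FPKM, stand far above all other lists, and B cell markers, at 24.6 and 1.22 FPKM, are furthest apart.

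Most receptors of the colon crypt stood at much the same level at both ends, as did most genes of the table. On the FPKM + 1 scale, 19 of the 24 measured receptors (79.2%) differed by less than 1.5-fold, beside 82.7% of all measured genes. A difference of at least 2-fold on that scale was found for 2 receptors: Ltk, higher distally, and Pdgfrb, higher proximally. Among all measured genes, 7.62% were at least 2-fold apart, 3.71% on the distal and 3.91% on the proximal side, and 17.3% were at least 1.5-fold apart, so the receptors' shares lay near those of all genes. The 2 sides held 365 and 385 genes, or 284 and 464 after the upper quartiles of the libraries were made equal. The authors' deposited table marked 26 of the receptors as tested and called 3 of them, where it called 5.43% of all genes it tested. The 3 were Ltk on the distal side and Pdgfrb and Epha5 on the proximal side. Among the receptors marked as tested, Fgfr3 and Ephb6 would join them at an unadjusted p of at most 0.05 in the authors' deposited table, both on the distal side.

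The median log2 ratio of the measured receptors was 0.14, beside 0.09 over all measured genes, and 14 receptors (58.3%) were higher distally and 10 proximally, where 61.4% of all measured genes were higher distally. This balance depended on how the libraries were scaled against each other. With the distal library rescaled to a median log2 ratio of 0, the receptors split 12 to 12, and with equal upper quartiles their median was -0.02 while that of all genes moved by more than 0.1, to -0.06. Met and Ddr1 changed sign under either rescaling, and no other measured receptor did.

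**Figure D2:**
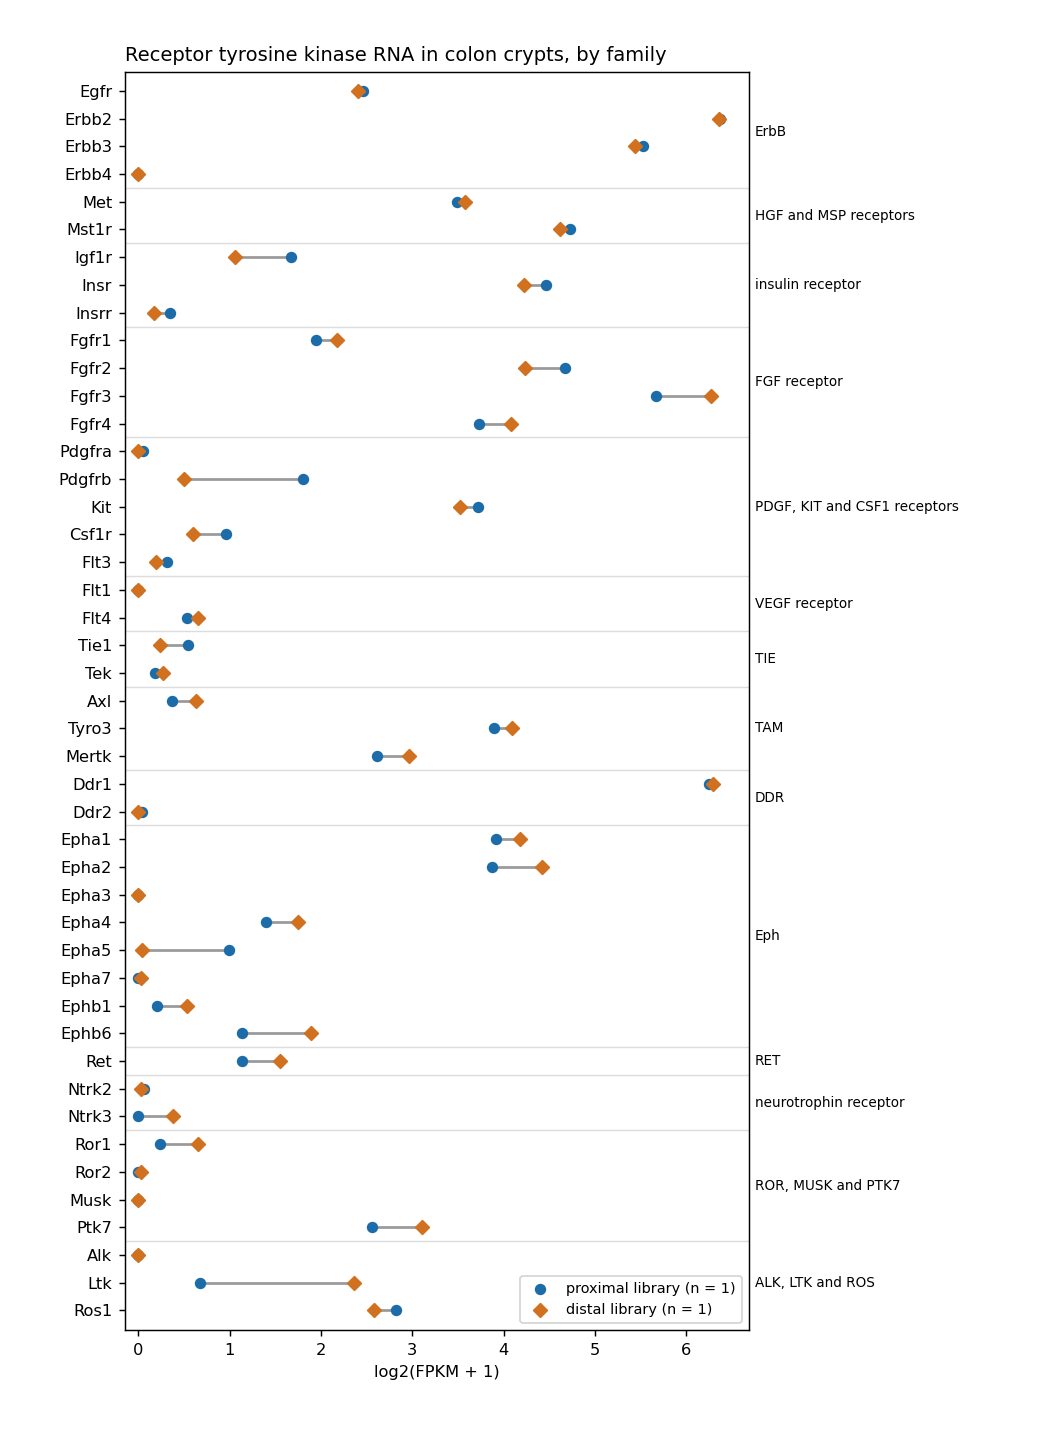
Level of each of the 45 receptor genes as log2(FPKM + 1) in the proximal (circles) and distal (diamonds) library, in family order, with a line joining the values of a gene. Symbols largely coincide for Erbb2 and Ddr1, the highest genes, and lie furthest apart for Ltk, Pdgfrb and Epha5.

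Summed over all 45 genes, receptor RNA came to 437 FPKM proximally and 471 FPKM distally. The same 4 genes headed the order in both: Erbb2, Ddr1, Fgfr3 and Erbb3 made up 57.8% of the sum proximally and 58.9% distally, and Mst1r was the next in both. Neighbours in this order lay close, since in the distal library Erbb2, Ddr1 and Fgfr3 stood between 76.6 and 81.0 FPKM, and no replicate error exists to separate them. Erbb2 stood higher than 90.5% of all measured genes proximally and 88.8% distally.

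The 3 called receptors were of low level, and no receptor of high level was 2-fold apart. All 8 receptors that reached 20 FPKM in either library, and all 8 that peaked between 5 and 20 FPKM, were less than 2-fold apart. In these level classes 6.71% and 6.55% of all genes were at least 2-fold apart. Of the 8 receptors that peaked between 1 and 5 FPKM, 2 were at least 2-fold apart, in a class where 11.6% of all genes were. The median implied SE of all genes was 0.67 on the log2 scale in this lowest class and 0.31 from 20 FPKM up, so that the low receptors are also the least precisely measured.

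**Figure D3:**
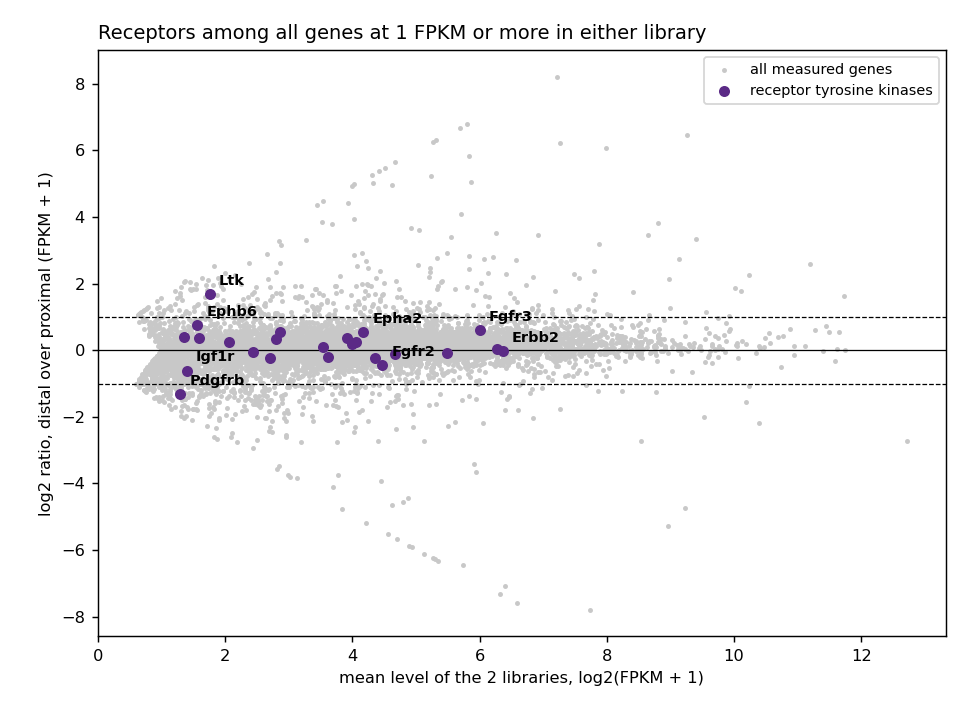
Log2 ratio of distal over proximal against the mean level of both libraries, both on FPKM + 1, for all 9847 measured genes (grey) and the 24 measured receptors (purple), with dashed lines at 2-fold. Ltk and Pdgfrb lie outside the dashed lines near the low end, and receptors at high level, such as Erbb2, lie near 0.

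The stretch upstream of the annotated start is shown for Ltk and Epha5, called in the authors' deposited table. Tyro3, which lies near Ltk and was 1.16-fold apart, is shown as well, so that base composition can be compared. The third called receptor, Pdgfrb, was not matched to a promoter by symbol. Ltk and Tyro3 are 36.5 kb apart on chromosome 3 of rn4, the build named for the RNA samples, with 1 gene between them. The 250 bases before the start site come from RefSeq on the GRCr8 assembly, in lower case and 5′ to 3′ on the strand of the gene, with capitals for the GC box GGGCGG or its reverse complement CCGCCC. They cover chr3:127195357-127195606 (minus strand) for Ltk, chr3:127231653-127231902 (plus strand) for Tyro3 and chr14:24007872-24008121 (plus strand) for Epha5.
Ltk: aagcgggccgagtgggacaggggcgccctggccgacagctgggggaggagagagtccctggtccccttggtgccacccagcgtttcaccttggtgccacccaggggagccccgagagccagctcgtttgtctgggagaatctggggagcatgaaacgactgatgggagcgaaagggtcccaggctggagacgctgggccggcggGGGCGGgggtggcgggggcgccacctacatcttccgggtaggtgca
Tyro3: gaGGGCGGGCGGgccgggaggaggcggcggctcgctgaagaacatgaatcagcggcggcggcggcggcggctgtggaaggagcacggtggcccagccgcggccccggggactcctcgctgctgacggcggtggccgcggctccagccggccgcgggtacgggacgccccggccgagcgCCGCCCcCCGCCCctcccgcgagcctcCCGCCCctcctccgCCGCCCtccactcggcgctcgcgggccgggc
Epha5: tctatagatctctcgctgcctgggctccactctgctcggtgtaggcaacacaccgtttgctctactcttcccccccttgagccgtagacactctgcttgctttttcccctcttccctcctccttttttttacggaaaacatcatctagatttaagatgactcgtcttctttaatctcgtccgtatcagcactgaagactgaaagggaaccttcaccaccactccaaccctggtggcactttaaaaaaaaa
The window of Tyro3 is 82.0% G or C with 41 CpG dinucleotides and 6 GC boxes on either strand, some of them overlapping. That of Ltk is 68.8% G or C with 16 CpG dinucleotides and 1 GC box. The letters around this GC box also read as a run of glycine codons, so the Ltk window may hold coding sequence. Whether transcription begins at the annotated start of Ltk was not tested. The window of Epha5 is 47.6% G or C with 8 CpG dinucleotides and no GC box.

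Of the 45 receptors, 36 matched a RefSeq promoter by symbol. The median number of CpG dinucleotides in the 250 bases was 15 for the 20 measured receptors with a promoter, 12.5 for the 16 under 1 FPKM, and 16 for 7112 measured genes of the whole table. A GC box on either strand was present in 14 of these 20 and in 8 of these 16, compared with 32.4% of all 27457 promoters and 59.4% of those of measured genes. Ltk is counted among the 14, although its window may hold coding sequence. The window held the letters TATAAA, on either strand, for 1 of the 36 receptors, Flt1, for 13.1% of all promoters and for 6.64% of those of measured genes. Ros1 and Met had the fewest CpG dinucleotides, 3 each, and both genes were measured. These are counts of letters and do not show that a factor binds there or that transcription begins at the annotated start.

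The ErbB receptors bind EGF-like ligands and neuregulins, and 3 of the 4 were measured at nearly identical levels at both ends. Erbb2, which has no ligand of its own and pairs with the other ErbB chains, stood at 81.7 FPKM proximally and 81.0 FPKM distally. Erbb3, the neuregulin receptor with a weak kinase, stood at 45.1 and 42.5 FPKM. Egfr, the receptor for EGF and TGF alpha, was the lowest of these, at 4.501 and 4.29 FPKM. The order Erbb2, Erbb3, Egfr therefore held at both ends, with Erbb2 18.1 times Egfr proximally and 18.9 times distally. In the authors' deposited table Erbb2 had a log2 fold change of -0.01 with an implied SE of 0.33, hence a 95% interval from -0.66 to 0.63. Erbb4, a neuregulin receptor of heart and nerve, was listed at 0 in both libraries.

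Of 9 EGF family ligands in the table, 6 were measured. On the FPKM + 1 scale 3 of these were at least 2-fold higher distally and none proximally, beside 3.71% and 3.91% of all measured genes. They were Areg, at 2.23 FPKM proximally and 6.10 FPKM distally (2.73-fold), Btc, at 0.258 and 4.41 FPKM, and Nrg4, at 0.662 and 3.06 FPKM (4.61-fold). Areg and Btc encode ligands of EGFR, amphiregulin and betacellulin, and Nrg4 encodes a neuregulin. None of the 3 was called in the authors' deposited table, with q of 0.269, 0.0877 and 0.9996, and the table gives the locus of Nrg4 to a further gene as well. Egf (11.1 and 13.9 FPKM), Tgfa (14.97 and 13.0 FPKM) and Hbegf (11.9 and 11.4 FPKM) were the more abundant ligands, each less than 1.5-fold apart.

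Met, the receptor of hepatocyte growth factor, and Mst1r, the receptor of macrophage-stimulating protein, were both measured and both alike at the ends. Mst1r stood at 25.5 FPKM proximally and 23.6 FPKM distally, and Met at 10.2 and 10.9 FPKM. The ligand of Met differed: Hgf stood at 0.428 FPKM proximally and 4.59 FPKM distally (10.7-fold). The authors' deposited table called Hgf, with a log2 fold change of 3.42, an implied SE of 0.67 and a q of 2.04e-05. HGF is known as a product of stromal cells, and 5 of the 9 fibroblast and muscle markers were higher distally, 2 were higher proximally and 2 were listed at 0 in both. Their sum was nevertheless lower distally, at 16.4 against 19.2 FPKM, because of Vim, a filament gene of many cell types, at 13.6 FPKM proximally and 7.07 FPKM distally. Within that list Des, a muscle filament gene, stood at 0.0398 FPKM proximally and 2.91 FPKM distally, called in the authors' deposited table. Col1a1 (0.170 and 0.445 FPKM) and Col1a2 (0.0899 and 0.265 FPKM) were under 1 FPKM and marked as not tested. Myh11 (1.36 and 1.37 FPKM) and Tagln (3.86 and 4.21 FPKM), counted as higher distally, were nearly level. So was Col3a1 (0.147 and 0.140 FPKM), counted as higher proximally. The part of such cells in the Hgf value was not tested. Mst1, the ligand of Mst1r, was listed at 0.0415 and 0.0707 FPKM.

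The 2 measured genes of the insulin receptor family had higher values proximally, and neither was called. Insr, the insulin receptor, stood at 21.2 FPKM proximally and 17.8 FPKM distally, only 1.19-fold apart. Igf1r, the receptor of insulin-like growth factors, stood at 2.18 and 1.09 FPKM (2.01-fold), at a log2 ratio of -0.61 on the FPKM + 1 scale. The authors' deposited table gave Igf1r a log2 fold change of -1.005 with an implied SE of 0.57 and a q of 0.534, and its 95% interval ran from -2.12 to 0.11. Insrr, an insulin receptor relative that senses alkaline pH, was listed at 0.270 and 0.122 FPKM. The ligand genes Ins1 and Ins2 were listed at 0 in both libraries, and Igf1 and Igf2 were at 0.132 FPKM or less.

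All 4 FGF receptors were measured, and they did not lie on the same side. Fgfr3, best known for restraining bone growth, stood at 50.05 FPKM proximally and 76.6 FPKM distally (1.53-fold). Fgfr2, which in epithelia responds to stromal FGF, stood at 24.6 and 17.8 FPKM (1.38-fold higher proximally). Fgfr4, the receptor best known for the bile acid hormone FGF19 and its rodent form FGF15, stood at 12.2 and 16.0 FPKM. Fgfr1 was the lowest, at 2.84 and 3.52 FPKM. Fgfr3 was thus the main FGF receptor at both ends, and the next was Fgfr2. The authors' deposited table gave Fgfr3 a log2 fold change of 0.61 with an implied SE of 0.30 and a 95% interval from 0.03 to 1.204, and did not call it (q of 0.353). For Fgfr2 the authors' deposited table gave -0.47 with an implied SE of 0.33. In a comparison chosen after the values were seen, Fgfr3 was 2.04 times Fgfr2 proximally and 4.31 times distally. The deposited log2 fold changes of the authors' table for this pair differ by 1.08, with an SE of 0.44 if their errors are independent.

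Of 21 FGF family genes in the table, 11 were listed at 0 in both libraries and 4 were measured. Fgf1 was the highest, at 14.7 FPKM proximally and 7.15 FPKM distally (2.06-fold, a log2 ratio of -0.95 on the FPKM + 1 scale), and was not called in the authors' deposited table (q of 0.354). Fgf16 was listed at 0 in the proximal library and at 1.26 FPKM in the distal library. Fgf15 was listed at 0 in both. Fgf11, counted in the ligand list although its product stays in the cell, stood at 6.07 and 3.87 FPKM, and Fgf22 at 3.94 and 2.05 FPKM.

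In the family of PDGF, KIT and CSF1 receptors, the PDGF receptor beta gene was the member furthest towards the proximal end. Pdgfrb, a receptor of pericytes and other stromal cells, stood at 2.50 FPKM proximally and 0.410 FPKM distally (6.09-fold). It lies on chromosome 18 at 57014475 to 57053581 of rn4. The authors' deposited table gave Pdgfrb a log2 fold change of -2.61 with an implied SE of 0.61, a 95% interval from -3.81 to -1.41 and a q of 0.000930. Its log2 ratio on the FPKM + 1 scale was -1.31, and it was -0.47 with 5 FPKM added in place of 1. All 5 pericyte markers were in the table, summing to 5.89 FPKM proximally and 5.81 FPKM distally, nearly all of it from Notch3. Rgs5, a pericyte marker, stood at 0.224 and 0.191 FPKM, Cspg4 at 0.0891 and 0.0567 FPKM, and Kcnj8 was listed at 0 in both. B cell markers, at 24.6 and 1.22 FPKM in sum, lay on the same side as Pdgfrb, and their part in its value was not tested.

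Pdgfra, the PDGF receptor of fibroblasts beneath the epithelium, was listed at 0.0381 FPKM in the proximal library and at 0 in the distal library. Its ligand gene Pdgfa stood at 8.19 FPKM proximally and 26.1 FPKM distally (3.19-fold), called in the authors' deposited table with a log2 fold change of 1.67, an implied SE of 0.46 and a q of 0.00890. The ligand was thus at 8.19 FPKM or more in crypts where the RNA of its main receptor was near 0. Pdgfb, a ligand of PDGF receptor beta, stood at 1.51 and 1.85 FPKM, and Pdgfc at 12.1 and 8.34 FPKM. Pdgfd was listed at 0 in both libraries, in a locus that it shares with another gene.

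Kit, the stem cell factor receptor, was well measured and alike at the ends, at 12.1 FPKM proximally and 10.47 FPKM distally. The authors' deposited table gave it a log2 fold change of -0.21 with an implied SE of 0.33 and a q of 0.9996. Kitlg, its ligand, stood at 39.8 and 33.0 FPKM. Kit marks mast cells and also secretory cells at the crypt base. Mast cell markers stood lower in the distal library, and the authors' deposited table called Cpa3 (7.42 and 2.00 FPKM), Mcpt1 (59.2 and 18.7 FPKM) and Mcpt2 (275 and 133 FPKM), while Kit differed by 1.16-fold. Of the 8 mast cell markers, Tpsab1 and Tpsb2 were listed at 0 in both. The share of Kit RNA from mast cells was not tested. Kit and Pdgfra are 385 kb apart on chromosome 14 of rn4.

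Csf1r, the macrophage colony-stimulating factor receptor, stood at 0.939 FPKM proximally and 0.516 FPKM distally (1.82-fold). It lies 26.7 kb from Pdgfrb on chromosome 18, with no gene of the table between them. The authors' deposited table gave Csf1r a log2 fold change of -0.86 with an implied SE of 0.71 and did not call it (q of 0.863). Of the 11 macrophage and myeloid markers in the table, 6 were higher proximally, 3 distally and 2 were listed at 0 in both. Lyz2, a lysozyme gene of myeloid cells, stood at 11.1 and 2.50 FPKM (4.47-fold) and was called in the authors' deposited table (q of 0.0118), on the same side as Csf1r. Aif1 stood at 1.14 and 0.553 FPKM (2.07-fold) and was not called, and both genes share a locus with another gene in the table. The complement genes C1qa (3.72 and 3.57 FPKM), C1qb (3.08 and 2.15 FPKM) and C1qc (2.97 and 4.62 FPKM) did not lie on 1 side, and Cd68 stood at 2.98 and 2.30 FPKM. All 11 macrophage and myeloid markers in the table summed to 126 FPKM proximally and 132 FPKM distally, most of it from Cd14 (101 and 115.5 FPKM), with Cd163 and Emr1 listed at 0 in both. The part of such cells in the Csf1r value was not tested. Its ligand genes were Csf1, at 1.84 and 1.57 FPKM, and Il34, at 21.9 and 17.2 FPKM. Flt3, a receptor of blood cell precursors, was listed at 0.238 and 0.141 FPKM.

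The receptors of vessels that were found were low, under 1 FPKM in both libraries. Kdr, a VEGF receptor on the list, was not analysed here. Flt1, a VEGF receptor, was listed at 0 in both libraries, and Flt4, the receptor of lymphatic vessels, stood at 0.443 FPKM proximally and 0.569 FPKM distally. Tie1 stood at 0.454 and 0.174 FPKM and Tek, the angiopoietin receptor, at 0.130 and 0.202 FPKM. Endothelial markers were low as well, with Cldn5 listed at 0 in both, Cdh5 at 0.0696 and 0 FPKM and Pecam1 at 1.64 and 1.29 FPKM. The sum of the 6 endothelial markers in the table, 9.40 and 26.2 FPKM, came mostly from Esam (6.54 and 22.9 FPKM), which was called in the authors' deposited table. Ligands of these receptors were present: Vegfa stood at 29.96 and 37.5 FPKM, Vegfc at 4.16 and 6.32 FPKM and Vegfb at 3.69 and 2.39 FPKM, none of them called. Angpt1 stood at 0.824 and 0.105 FPKM.

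The TAM receptors, which bind dying cells through the bridging ligands GAS6 and protein S, were slightly higher in the distal library, under the authors' scaling and under both rescalings. Tyro3 stood at 13.9 FPKM proximally and 16.1 FPKM distally, and Mertk at 5.12 and 6.81 FPKM. Axl was listed at 0.295 and 0.552 FPKM. Neither measured receptor was called. With equal upper quartiles their log2 ratios were 0.04 for Tyro3 and 0.20 for Mertk. Under the authors' scaling 61.4% of all measured genes were higher distally as well. Gas6 stood at 56.7 and 123 FPKM (2.16-fold), and the authors' deposited table called it with a log2 fold change of 1.11, an implied SE of 0.31 and a q of 0.00908. Pros1, which encodes protein S, was listed at 0 in both.

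Ddr1, the collagen receptor of epithelia, was the second highest receptor at both ends, at 75.4 FPKM proximally and 77.6 FPKM distally. Ddr2, its stromal relative, was listed at 0.0266 FPKM in the proximal library, the level of a single read, and at 0 in the distal library. Ddr1 was thus the discoidin receptor of the crypts at either end.

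Eph receptors bind ephrins on neighbouring cells and are known for sorting cells along the crypt. The 4 measured Eph receptors of the list were higher in the distal library, under the authors' scaling and under both rescalings, with a median log2 ratio of 0.45, and none was called. Over all measured genes 61.4% were higher distally, and Ephb2, measured but not on the list, was lower there (34.8 and 31.4 FPKM). Epha2 stood at 13.6 FPKM proximally and 20.4 FPKM distally (1.49-fold), Epha1 at 14.1 and 17.1 FPKM, and Epha4 at 1.63 and 2.37 FPKM. The authors' deposited table gave Epha2 a log2 fold change of 0.58 with an implied SE of 0.31 and a q of 0.463. Ephb6, an Eph receptor with an inactive kinase, stood at 1.19 and 2.71 FPKM (2.27-fold, a log2 ratio of 0.76 on the FPKM + 1 scale). The authors' deposited table gave Ephb6 a log2 fold change of 1.18 with an implied SE of 0.58 and a q of 0.359. Epha1 shares its locus in the table with Zyx, whose reads its value can hold.

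Epha5, an Eph receptor best known from the nervous system, had the largest deposited difference of all receptors. It stood at 0.984 FPKM proximally and 0.0283 FPKM distally, so it missed the level of 1 FPKM by a small margin. It lies on chromosome 14 at 25524170 to 25896798 of rn4. The authors' deposited table called Epha5 with a log2 fold change of -5.12, an implied SE of 1.09, a 95% interval from -7.26 to -2.98 and a q of 0.000166. The distal value is close to what 1 read gives on a transcript of 4 kb, 0.0273 FPKM, so the size of the difference is poorly known. The 7 markers of enteric neurons and glia in the table were low and summed to 3.98 FPKM proximally and 2.31 FPKM distally, with Sox10 listed at 0 in both and Uchl1 at 0.695 and 0.0848 FPKM. Their part in the Epha5 value was not tested.

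Ephb1 was listed at 0.151 and 0.447 FPKM, Epha7 at 0 and 0.0215 FPKM, the level of a single read, and Epha3 at 0 in both. Ephrin genes were abundant: Efnb1 stood at 91.9 FPKM proximally and 105 FPKM distally, Efna1 at 81.3 and 96.3 FPKM and Efnb2 at 43.9 and 40.7 FPKM. Of the 7 ephrin genes in the table, 4 were measured, and all 4 were less than 1.5-fold apart. Ephb3, like Ephb2 an Eph receptor of the crypt base that was not on the list, stood at 20.5 and 33.5 FPKM, and neither of this pair was called in the authors' deposited table.

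Ltk, leukocyte tyrosine kinase, was the receptor furthest towards the distal end. It stood at 0.598 FPKM proximally and 4.15 FPKM distally (6.94-fold). It lies on chromosome 3 at 106266245 to 106273122 of rn4. The authors' deposited table called Ltk with a log2 fold change of 2.79, an implied SE of 0.66, a 95% interval from 1.49 to 4.10 and a q of 0.00111. Its log2 ratio on the FPKM + 1 scale was 1.69, and it was 0.71 with 5 FPKM added. Tyro3, its neighbour, was 1.16-fold apart, so the difference at Ltk did not extend to the next receptor gene. Alk, the closest relative of Ltk, was listed at 0 in both libraries, in a locus the table gives also for LOC298795. Ros1, a receptor known from epithelia of the epididymis, stood at 6.07 and 5.003 FPKM.

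The remaining receptors were low, apart from Ptk7. Ptk7, a receptor of planar cell polarity with an inactive kinase, stood at 4.91 FPKM proximally and 7.61 FPKM distally (1.55-fold). The authors' deposited table gave it a log2 fold change of 0.63 with an implied SE of 0.48 and a q of 0.809 and did not call it. Ret, the receptor of GDNF family ligands on enteric neurons, stood at 1.196 and 1.92 FPKM. Its co-receptors Gfra1 (0.727 and 0.233 FPKM) and Gfra3 (0.845 and 0.675 FPKM) were under 1 FPKM, and of the ligand genes Gdnf, Nrtn and Pspn were listed at 0 in both, while Artn stood at 1.05 and 2.09 FPKM and Gdf15 at 9.09 and 16.5 FPKM.

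Ror1, a receptor of Wnt5a, was listed at 0.176 and 0.575 FPKM, and Ror2, another, at 0 and 0.0201 FPKM, the level of a single read. The neurotrophin receptor Ntrk3 was listed at 0 in the proximal library and 0.303 FPKM in the distal library, and Ntrk2 at 0.0447 and 0.0188 FPKM. Musk, the receptor of the neuromuscular junction, was listed at 0 in both. In all, 21 receptors were under 1 FPKM in both libraries, of which 5 were listed at 0 in both, 3 at 0 in the proximal library only and 2 at 0 in the distal library only. The authors' deposited table marked 19 of these 21 as not tested, and the other 2 were Epha5 and Csf1r.

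**Figure D4:**
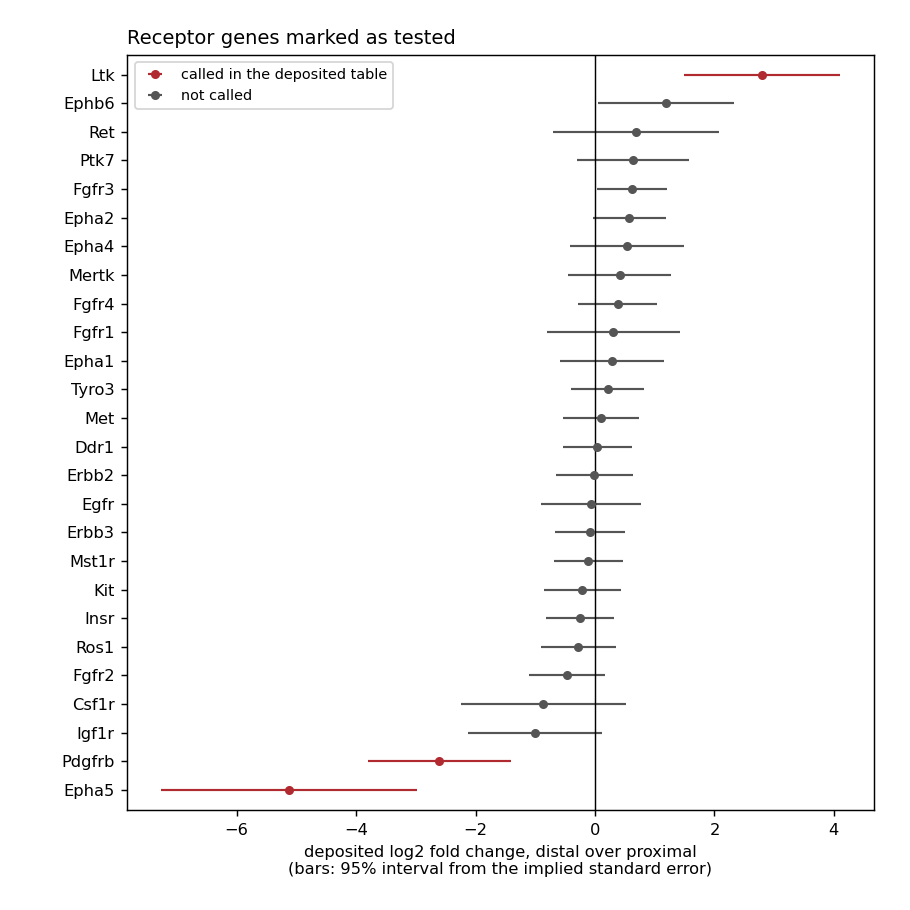
Log2 fold change of distal over proximal from the authors' deposited table for the 26 receptors marked as tested, with bars for the 95% interval from the implied standard error, and called genes in red. The intervals of Ltk (1.49 to 4.10), Pdgfrb (-3.81 to -1.41) and Epha5 (-7.26 to -2.98) lie clear of 0, those of Fgfr3 and Ephb6 just clear it, and the other 21 cross it.

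By role, most of the pathway genes at least 2-fold apart were ligand genes. Of 68 genes of the ligand lists in the table, 28 were measured. On the FPKM + 1 scale 7 of these were at least 2-fold higher distally: Areg, Btc, Nrg4, Hgf, Fgf16, Pdgfa and Gas6. None was at least 2-fold higher proximally on that scale. This split was counted under the authors' scaling and was not recounted for the ligands under the rescalings, which lower the distal values. Gas6 and Areg passed the line narrowly, at log2 ratios of 1.10 and 1.14. Fgf1 fell just short of it on the proximal side, at -0.95. Among all measured genes 3.71% were at least 2-fold higher distally and 3.91% proximally. The authors' deposited table called 3 of them, Hgf, Pdgfa and Gas6, and no ligand on the proximal side. These lists were chosen with results of these data known, and the difference between roles was not tested.

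**Figure D5:**
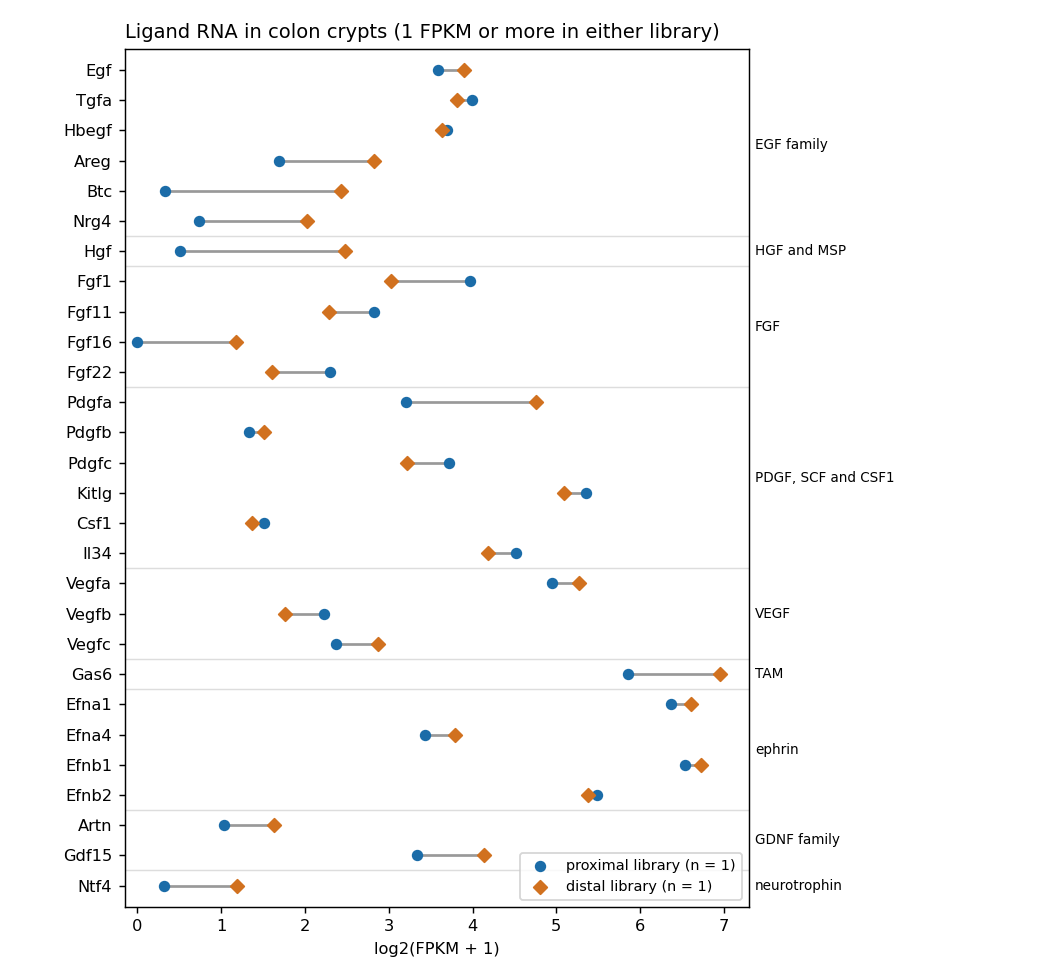
Level of the 28 measured genes of the ligand lists as log2(FPKM + 1) in the proximal (circles) and distal (diamonds) library, grouped by list. Hgf, Btc, Pdgfa, Nrg4, Fgf16, Areg and Gas6 lie at least 2-fold to the distal side, and Fgf1 lies furthest to the proximal side.

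Co-receptors included 1 called gene. Nrp2, the neuropilin that binds VEGF and semaphorins, stood at 25.9 FPKM proximally and 12.1 FPKM distally (2.15-fold), and the authors' deposited table gave it a log2 fold change of -1.10, an implied SE of 0.31 and a q of 0.0121. The other 4 measured co-receptors, Nrp1, Lrp4, Sdc1 and Sdc4, were less than 1.5-fold apart.

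Signal relays inside the cell lay near the state of the whole table. Of 40 adaptor and relay genes in the table, 36 were measured with a median log2 ratio of 0.08, beside 0.09 over all measured genes. In this list 1 gene was at least 2-fold apart, beside 7.62% of all measured genes: Grb14, an adaptor that inhibits the insulin receptor, at 2.69 FPKM proximally and 7.02 FPKM distally (2.61-fold). It was not called in the authors' deposited table (q of 0.166), and no other gene of that list was called. The kinase genes Mapk3 (236 and 264 FPKM), Map2k2 (167 and 218 FPKM) and Akt1 (81.5 and 111 FPKM) were the highest of them.

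Of the inhibitors of receptor signalling, 20 were measured, with a median log2 ratio of 0.22 beside 0.09 over all measured genes. None was at least 2-fold apart, beside 7.62% of all measured genes. Errfi1, which blocks ErbB kinases, stood at 61.2 FPKM proximally and 94.3 FPKM distally, Spry2 at 25.1 and 30.8 FPKM, and Dusp6, a phosphatase of ERK, at 11.7 and 16.1 FPKM. Genes known to be induced by receptor and ERK signalling went both ways, with 8 of 10 measured. Etv5 stood at 27.1 and 10.6 FPKM (2.57-fold higher proximally) and Fos at 108 and 256 FPKM (2.38-fold higher distally), both called in the authors' deposited table. Etv4, a close relative of Etv5, stood at 1.55 and 3.41 FPKM, Egr1 at 31.7 and 30.1 FPKM and Ccnd1 at 111 and 132 FPKM, none of them called.

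Over all 97 measured pathway genes, 9 were apart by 2-fold or more towards the distal and 2 towards the proximal end, where 3.71% and 3.91% of all measured genes were, and the median log2 ratio was 0.17. With equal upper quartiles the split was 6 to 3, and with a median log2 ratio of 0 it was 8 to 3. The authors' deposited table called 4 on the distal and 2 on the proximal side.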

How the data were processed

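RNA of proximal and distal colon crypts was compared in 2 libraries, which per the labels pooled 7 rats each. The submitters' processing notes name CASAVA, TopHat2 and build rn4 for the RNA samples, without versions or roles. Which program wrote the table is not given here in any source. The deposited values were read as FPKM made by the authors, since they are fractional, have unequal column sums (412814 and 463340 over the kept genes) and rise in gene-dependent steps at low levels. The scaling between the libraries is not stated in any source used.

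The table also holds, per the file headers, the authors' log2 fold change with its statistic, p-value, q-value and call. The deposited p-value matches the two-sided normal tail of the statistic to within 2.76e-06, and the implied SE is the deposited log2 fold change divided by the statistic. Placeholders for genes at 0 in 1 library were not used.

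Of 16492 rows, 23 marked as too low in data or failed and 1 repeated gene were dropped, leaving 16468 genes. Positions are 1-based here: adding 1 to the deposited start made 1185 of 1186 short olfactory receptor loci (under 1100 bases) divisible by 3 in length. The level of a single read came from rows at 0 in the other library that carry the most frequent deposited p-value (0.149 for 232 proximal and 0.169 for 234 distal rows), using 8 and 4 olfactory receptor genes, so it is approximate.

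Log2 ratios, medians and counts were computed with pandas 2.3.3 and numpy 2.4.6 and checked on simulated data. No test of the ends was made, since each group had 1 library. Every measured receptor is named with both values, statistics of the deposited table are printed for called or 2-fold receptors and the highest of families of 4 or more, and pathway genes are named when called or 2-fold apart, or highest of their list. A few further genes were named, and deposited statistics of Fgfr2 and Csf1r printed, after their values were seen. The receptors and gene lists were chosen with earlier results of these data known. Alternatives were other pseudocounts, minimums, thresholds and scalings, and leaving out 1297 genes that share a locus. Of the lists, 150 of 165 pathway symbols, older names included, were in the table.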

Additional observations from a re-analysis of the deposited data

How the results depend on the processing

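Ltk and Pdgfrb remained at least 2-fold apart with no minimum, under both rescalings of the libraries, without genes sharing a locus and with 0.1 FPKM added, where Ephb6 joined for 2 receptors on the distal side. With 5 FPKM added, with a minimum of 5 FPKM and at a threshold of 4-fold there were 0 on either side, and at 1.5-fold there were 3 on the distal and 2 on the proximal side. The median log2 ratio of the receptors was 0 when no minimum was set and -0.0155 when the upper quartiles were made equal. Of the pathway genes, 3 and 1 were apart on the distal and proximal side with 5 FPKM added, 5 on the distal side with a minimum of 5 FPKM, 14 and 6 at 1.5-fold, and 1 and 0 at 4-fold. At an unadjusted p of at most 0.05 the deposited table would call 3 of the receptors marked as tested on the distal side. Of 100 recomputed ratios of single receptors, 95 moved by less than their implied SE and 0 changed the sign of a called or 2-fold receptor. The 5 that moved further were Pdgfrb and Ltk with 0.1 or 5 FPKM added and Epha5 with 0.1 FPKM. No paired analysis was possible because each end of the colon has 1 library. No replicate could be left out. Depth limits the receptors under 1 FPKM.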
